A study of Rattus norvegicus with 12 samples.

Results

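Oxidative phosphorylation genes of the nuclear genome were examined in brain tissue of Sprague-Dawley rats. The genes were chosen by name: every row of the count table whose symbol belongs to the Nduf subunit and assembly factor families, Sdha to Sdhd, the Uqcr family, Cyc1, Cycs, the numbered Cox subunits or the Atp5 family, with a summed count of at least 50 over all columns. This gave 91 of the 18800 symbols in the table. A further 2 rows matched by name but fell below the minimum, Cox8b with a summed count of 49 and Cox7b2 with 22, while the lowest gene inside it was Cox6a2 with 186. All 91 passed the expression filter of the test. They comprise 35 subunits of complex I, 4 of complex II, 9 of complex III, 16 of complex IV, 14 of complex V, cytochrome c, 8 assembly factors of complex I and 4 accessory proteins.

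The mitochondrial respiratory chain passes electrons from NADH through complex I, and from succinate through complex II, to ubiquinone, then through complex III, cytochrome c and complex IV to oxygen. Complexes I, III and IV pump protons across the inner membrane, and complex V, the ATP synthase, uses the returning protons to make ATP. Complex II is encoded wholly by nuclear genes, whereas the other complexes also hold subunits made from mitochondrial DNA, which were not analysed here. Neurons depend on this pathway for most of their ATP, and arterial occlusion cuts off its oxygen.

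Messenger RNA was sequenced in 3 groups. Controls were bound during the intervention and had no electroacupuncture. The model rats had middle cerebral artery occlusion with reperfusion (an artery feeding the brain is blocked and reopened) and were bound in the same way. The treated rats had the same operation and binding, with electroacupuncture, a weak current through needles, at 4 points named Tianfu, Chize, Kongzui and Taiyuan. The labels list 12 samples but give no age, sex, brain region, side or time after reperfusion, and name no operation for the controls, whose 3 columns in the table are headed sham. The table holds 11 columns. The counts of 3 column pairs, each within a group, differed by only 1.34 to 1.4 times the sampling variance. Any other pair within a group differed by at least 4.74 times, and the closest pair from different groups by 3.64 times. Each near-identical pair was summed and counted as 1 sample. This left 3 control libraries (A to C), 2 model libraries (A, B) and 3 electroacupuncture libraries (A to C). No label says whether each is a different animal. The p-values therefore reflect variation among the sequenced libraries alone, and some of it may be technical.

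Total counts were 9335913 to 23835724 per sample. Neuronal markers were present in all 8 samples, with Snap25, a synaptic vesicle fusion protein, at 1121 CPM (library-size-scaled counts, adjusted by the trimmed mean of M-values, TMM) in electroacupuncture A and up to 4914 CPM in model B. The samples differed in regional markers. The 8 hippocampal genes tested, of 9 listed, had medians of -2.65 (model A), -2.42 (model B) and -2.07 (electroacupuncture A), while the remaining 5 libraries lay between -0.30 and 0.10. Their summed level was 774 to 948 CPM in controls, 265 to 340.1 CPM in the model and 286 to 745 CPM with electroacupuncture. These values, like all levels called log2 differences here, are log2 CPM (prior count 2) minus the mean of the 3 controls. Genes of striatal medium spiny neurons, 8 in all, had a median of 5.25 in electroacupuncture A, and of 2.57 in model A. The median of 6 general neuronal genes was -1.22 in electroacupuncture A against -0.29 to 0.30 elsewhere. The 7 neocortical genes had medians of 2.45 in model B, 0.68 in model A, -0.21 to 0.08 in controls and -0.19 to 0.41 with electroacupuncture, and summed levels of 489 to 1400.4 CPM in the model, 233 to 290.4 CPM in controls and 266 to 318 CPM with electroacupuncture. In the model 6 of 7 were higher in estimate than in controls, 5 of them with an unadjusted edgeR p under 0.05. The 7 oligodendrocyte genes were all lower in estimate in the model, with medians of -0.39 and -1.25 against -0.37 to 0.43 in controls, and all higher with electroacupuncture than in the model. Their summed level was 42089 to 66939 CPM in controls, 24456 to 46921 CPM in the model and 31729 to 74129.6 CPM with electroacupuncture. The part of these differences in the results on oxidative phosphorylation genes was not tested. In bulk tissue with no region labelled, fewer cells of a type, less RNA per cell and a different piece of brain cannot be told apart.

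The promoters of the genes that stand out below are shown first, with a muscle-type isoform for contrast. Of the 91 genes, 79 had an entry in the RefSeq promoter table of assembly GRCr8, which gives 250 bases before to 50 after each annotated start. Each line holds the 250 bases before the start, 5′ to 3′ on the strand of the gene. Capitals mark letters that match any of 7 motifs searched on both strands: the palindromic NRF-1 core, CCGGAAG (the ETS family, which includes GABP), AAGATGGC (YY1), AAGGTCA (estrogen-related receptors), GGGCGG (Sp1), CCAAT (the CCAAT box) and TATAAA (the TATA box). Overlapping matches run together.
Atp5mc1, chr10:81523346-81523595, minus strand: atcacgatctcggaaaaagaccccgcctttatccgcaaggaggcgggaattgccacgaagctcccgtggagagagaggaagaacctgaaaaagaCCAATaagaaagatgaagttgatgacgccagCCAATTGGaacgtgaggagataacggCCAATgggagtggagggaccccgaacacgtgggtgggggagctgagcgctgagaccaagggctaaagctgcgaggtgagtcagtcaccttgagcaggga
Atp5mc2, chr7:135678219-135678468, minus strand: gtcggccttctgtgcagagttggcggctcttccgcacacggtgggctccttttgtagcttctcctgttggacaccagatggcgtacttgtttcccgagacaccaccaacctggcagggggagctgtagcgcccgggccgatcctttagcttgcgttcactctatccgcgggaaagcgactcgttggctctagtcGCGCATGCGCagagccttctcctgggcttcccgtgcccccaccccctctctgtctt
Atp5mc3, chr3:79220665-79220914, minus strand: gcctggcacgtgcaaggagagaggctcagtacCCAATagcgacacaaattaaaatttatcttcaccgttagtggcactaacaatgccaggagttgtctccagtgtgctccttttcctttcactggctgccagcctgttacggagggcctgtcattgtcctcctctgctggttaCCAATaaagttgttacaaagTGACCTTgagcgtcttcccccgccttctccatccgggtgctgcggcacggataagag
Uqcrc2, chr1:184598990-184599239, plus strand: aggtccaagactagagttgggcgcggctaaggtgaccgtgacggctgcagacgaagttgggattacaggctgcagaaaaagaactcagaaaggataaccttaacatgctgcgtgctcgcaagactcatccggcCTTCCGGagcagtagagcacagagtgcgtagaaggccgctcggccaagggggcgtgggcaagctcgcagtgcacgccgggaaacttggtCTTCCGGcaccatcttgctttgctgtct
Cycs, chr4:80984768-80985017, minus strand: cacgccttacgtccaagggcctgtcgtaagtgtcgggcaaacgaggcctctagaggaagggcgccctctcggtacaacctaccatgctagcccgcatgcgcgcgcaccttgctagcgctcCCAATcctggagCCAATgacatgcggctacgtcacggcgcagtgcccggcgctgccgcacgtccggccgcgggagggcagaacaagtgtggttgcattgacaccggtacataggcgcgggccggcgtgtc
Cox5a, chr8:66818034-66818283, plus strand: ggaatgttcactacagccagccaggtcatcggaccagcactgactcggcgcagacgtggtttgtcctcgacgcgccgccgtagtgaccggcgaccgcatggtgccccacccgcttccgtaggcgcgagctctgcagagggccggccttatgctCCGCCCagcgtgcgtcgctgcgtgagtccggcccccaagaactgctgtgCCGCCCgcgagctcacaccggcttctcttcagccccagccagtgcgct
Cox6a2, chr1:192219717-192219966, minus strand: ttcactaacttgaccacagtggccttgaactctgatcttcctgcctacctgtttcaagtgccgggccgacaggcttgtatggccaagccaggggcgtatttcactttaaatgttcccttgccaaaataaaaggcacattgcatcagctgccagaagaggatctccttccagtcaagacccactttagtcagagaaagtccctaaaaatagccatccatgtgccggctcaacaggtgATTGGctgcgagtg

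Atp5mc1 held 4 CCAAT matches, Atp5mc3 held 2 with 1 estrogen-related receptor match, and Atp5mc2 held the single NRF-1 match of the set. These genes encode the same mature subunit c of ATP synthase, and CCAAT was shared by the promoters of Atp5mc1 and Atp5mc3. Uqcrc2 carried 2 ETS matches, Cycs 2 CCAAT boxes and Cox5a 2 Sp1 matches. Only exact matches were marked, and the Cycs promoter also holds an unmarked stretch that differs from the NRF-1 core by 1 letter. Cox6a2 held 1 CCAAT match only.

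Across the 300-base windows of the 79 genes, motifs of the known mitochondrial regulators were found in larger shares than in the 11348 tested genes with an entry. NRF-1, a transcription factor of respiratory chain genes, matched in 6 promoters (7.59%, against 1.76%). The ETS motif matched in 22 (27.8%, against 15.9%), YY1 in 16 (20.3%, against 5.08%) and the estrogen-related receptor motif in 10 (12.7%, against 2.93%). The order was the other way for Sp1, at 39.2% against 60.3%. Median GC content was 57% against 60.7%. CCAAT boxes (34.2% against 37.2%) and TATA boxes (6.33% against 7.12%) differed little. Of the 6 genes with an NRF-1 match, 3 belonged to complex V (Atp5mc2, Atp5po and Atp5me), 1 to complex I (Ndufa11) and 2 were assembly factors (Ndufaf4 and Ndufaf5). A match is a description of the letters, and no binding was measured.

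The first comparison set the operated, untreated rats against controls. Most respiratory chain genes were slightly lower in estimate in the model: 67 of 91 had an estimate below 0, with a median log2 fold change of -0.13, against 48.5% of all 15487 genes tested and a median of 0.02. The differences were small, with 85 of the 91 estimates under 0.5 in size. None of the 91 passed an adjusted p of 0.05 (edgeR quasi-likelihood test; the share of all genes called was 0.00646%, and the smallest adjusted p of a member was 0.269). At an unadjusted p under 0.05 there were 3 members, or 3.3%, against 13.8% of all genes: 2 lower (6.2% of all genes) and 1 higher (7.61%). That count was 0 without control A or control C, 1 without control B, 8 without electroacupuncture A and 9 with the 2 groups fitted alone. The share of all genes was not counted in these fits, so the counts do not show a change particular to the members. Both model samples lay below every control for 27 members, which is 29.7% against 19.6% of all genes, and above every control for 5, which is 5.49% against 18.2%.

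Over all 91 genes the median was -0.21 for model A and -0.04 for model B, as a log2 difference from the control mean, and the controls ran from -0.10 to 0.06. Model A was thus below the control range and model B inside it. The group difference was -0.05 without model A and -0.21 without model B. With library totals in place of TMM scaling, the median of all genes moved by more than 0.1, from 0.02 to 0.13, and that of the 91 genes from -0.13 to -0.02, with 49 lower and 42 higher. On that scale 37.4% of all genes were lower. The gap between members and all genes was -0.15 on both scales. As a share of all counts, the 91 genes took 1.53% in model A and 1.64% in model B, within the controls' 1.53% to 1.65%.

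The complexes did not separate clearly. Their median log2 fold changes were -0.10 for complex I, -0.15 for complex II, -0.22 for complex III, -0.07 for complex IV and -0.14 for complex V. Within the control samples the 5 medians lay within 0.07 to 0.1 of each other, but in model A they spread over 0.3, from -0.17 for complex I to -0.47 for complex III. In model B they spread over 0.14, from 0.01 for complex IV to -0.13 for complex II. Complex III gave -0.48 without model B and -0.11 without model A, and complex IV gave -0.26 without model B, -0.19 without control A and 0.01 without model A. The order of the complexes therefore depended on which model sample was kept.

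**Figure D1:**
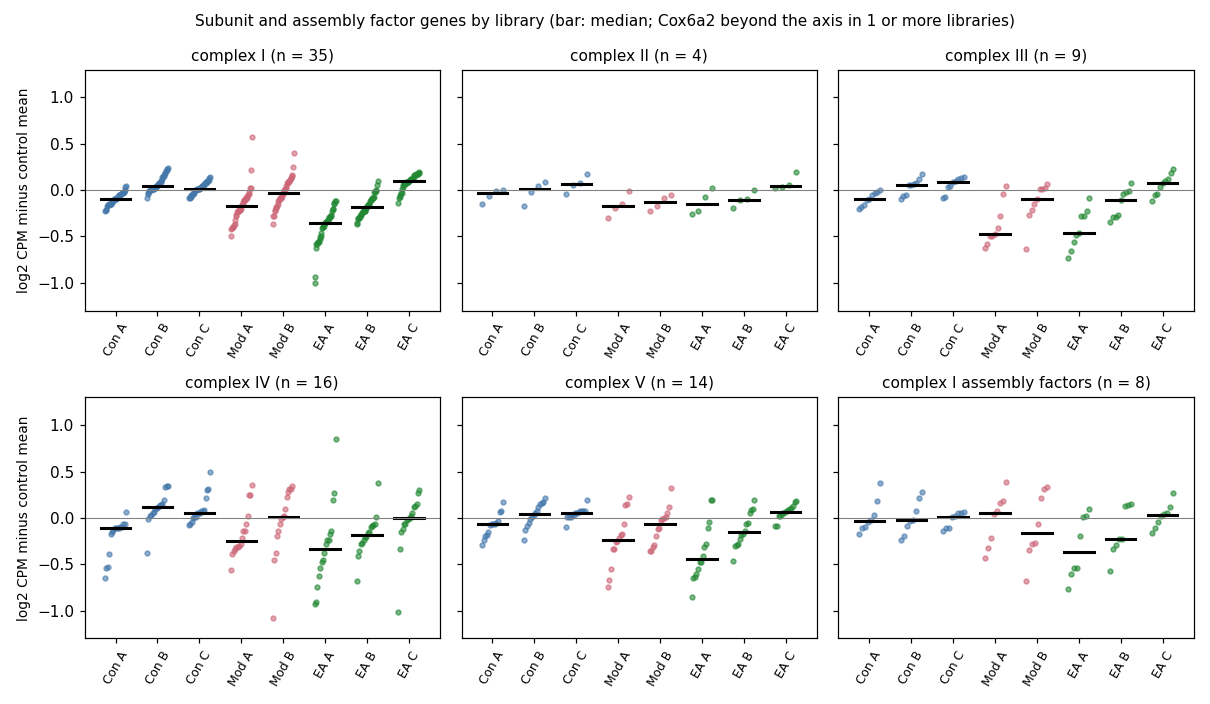
Log2 CPM minus the control mean (y axis) for each gene of 5 complexes and of the complex I assembly factors in each of the 8 samples (x axis; Con, control; Mod, model; EA, electroacupuncture); black bars are medians, and Cox6a2 lies beyond the axis. Complex III sits at -0.47 (model A) and -0.46 (electroacupuncture A), while electroacupuncture C is at or near the control level in every complex.

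Complex I, the NADH dehydrogenase, had 27 of 35 genes lower in estimate, and for 10 of them both model samples were below every control. The latter held for 19.6% of all genes tested, the share to set beside each such count in this comparison. Its 7 core subunits, which carry the flavin and iron-sulphur clusters, had a median of -0.06, and its 28 supernumerary subunits one of -0.12. Ndufb11, a supernumerary membrane subunit, measured 128, 131 and 132 CPM in the controls but, in the model, 98.6 and 107 CPM (log2 fold change -0.34, SE 0.19, edgeR adjusted p = 0.452). The model samples were below the narrow control range. Ndufb6, another membrane subunit, measured 88.5, 103 and 96.8 CPM in controls versus 67.8 and 84.6 CPM in the model (edgeR adjusted p = 0.458). Ndufc1 went the other way in 1 sample only, with 174 CPM in model A but 105 CPM in model B against 109.5, 132 and 110.2 CPM in controls. Ndufb7, at 127 and 117 CPM in the model, overlapped the controls at 94.3, 126 and 110.1 CPM.

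Complex II, succinate dehydrogenase, which also belongs to the citric acid cycle, had all 4 genes lower in estimate by small amounts. Sdha, the flavoprotein, measured 138, 144 and 134 CPM in controls versus 125 and 130.2 CPM in the model. Sdhc, a membrane anchor, measured 137, 142 and 152 CPM against 126 and 127 CPM. Sdhd, the other anchor, measured 109.7, 97.5 and 123 CPM against 88.8 and 94.2 CPM. For these 3 the model samples lay below every control, with edgeR adjusted p of 0.71, 0.558 and 0.482. Sdhb, the iron-sulphur subunit, overlapped, with 138, 164 and 160.2 CPM in controls versus 152 and 148 CPM in the model.

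Complex III, the cytochrome bc1 complex, held the member of the electron transport chain with the smallest unadjusted p in this comparison. Uqcrc2, a core protein on the matrix side, measured 218, 228 and 208 CPM in controls but, in the model, 155 and 140.4 CPM (log2 fold change -0.56, SE 0.22, unadjusted p = 0.0332, edgeR adjusted p = 0.315). Both model samples were low and close to each other. Its value was fractional in all 11 columns of the table, so reads shared with another gene may enter it. Its partner core protein Uqcrc1 measured 94.4 and 128 CPM in the model against 123, 121 and 134 CPM and overlapped the controls. Uqcr10, a small subunit, measured 51.5 and 58.8 CPM against 62, 74.1 and 78.3 CPM (edgeR adjusted p = 0.423). Cyc1, the cytochrome c1 subunit, was low in model A at 87.2 CPM but not in model B at 124 CPM, against 119, 118 and 132 CPM in controls.

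Cytochrome c (Cycs), the soluble carrier between complexes III and IV that also triggers apoptosis when released, had the lowest log2 fold change of the 91 genes. It measured 359, 297 and 369.9 CPM in controls versus 194 and 254 CPM in the model (-0.61, SE 0.29, edgeR adjusted p = 0.401). Both model samples were below every control. RefSeq names 7 pseudogenes after Cycs, and 10 of its 11 values were fractional.

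Complex IV, cytochrome c oxidase, was mixed, with 10 of 16 genes lower and 6 higher in estimate. Cox5a, a matrix-side subunit, measured 307, 367 and 323 CPM in controls but, in the model, 224 and 243 CPM (log2 fold change -0.51, SE 0.29, edgeR adjusted p = 0.468). Ndufa4, once assigned to complex I and now to complex IV, measured 442, 508 and 474 CPM against 363 and 364 CPM (edgeR adjusted p = 0.495). In both genes the model samples lay below every control. The general isoforms Cox4i1 and Cox6a1 instead split the 2 model samples. Cox4i1 measured 533 CPM in model A but 753 CPM in model B, on either side of the controls at 576, 631 and 662 CPM. Cox6a1 measured 466 and 729.7 CPM, on either side of 547, 615 and 609 CPM. Cox6c measured 364 and 445 CPM against 341, 417 and 382 CPM, Cox6b1 316 and 354 CPM against 347, 422 and 405 CPM, Cox7a2 159.9 and 198 CPM against 189, 219.7 and 189 CPM, and Cox8a 378 and 487 CPM against 447, 500.4 and 506 CPM. These groups overlapped.

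Complex V, ATP synthase, had 11 of 14 genes lower in estimate. The 3 genes of subunit c, which forms the rotor ring in the membrane, were lowest as a group, with a median of -0.47, against -0.13 for the 5 subunits of the F1 head and -0.08 for the 6 other subunits. Atp5mc1 measured 142, 107 and 133 CPM in controls but, in the model, 75.9 and 98.6 CPM (log2 fold change -0.55, SE 0.19, unadjusted p = 0.0203, edgeR adjusted p = 0.269), the smallest p of the 91 genes. Atp5mc2 measured 161, 159 and 174 CPM against 141 and 128 CPM (-0.29, SE 0.15, edgeR adjusted p = 0.414), and Atp5mc3 198, 207 and 213 CPM against 129.5 and 169 CPM (-0.47, SE 0.23, edgeR adjusted p = 0.413). In all 3 genes both model samples were below every control, and none passed. The ring was singled out as a subgroup after its values were seen. RefSeq names 2 pseudogenes after Atp5mc1 and 4 after Atp5mc2. All deposited values of these 2 genes were whole, which cannot show whether reads of a pseudogene entered them.

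**Figure D2:**
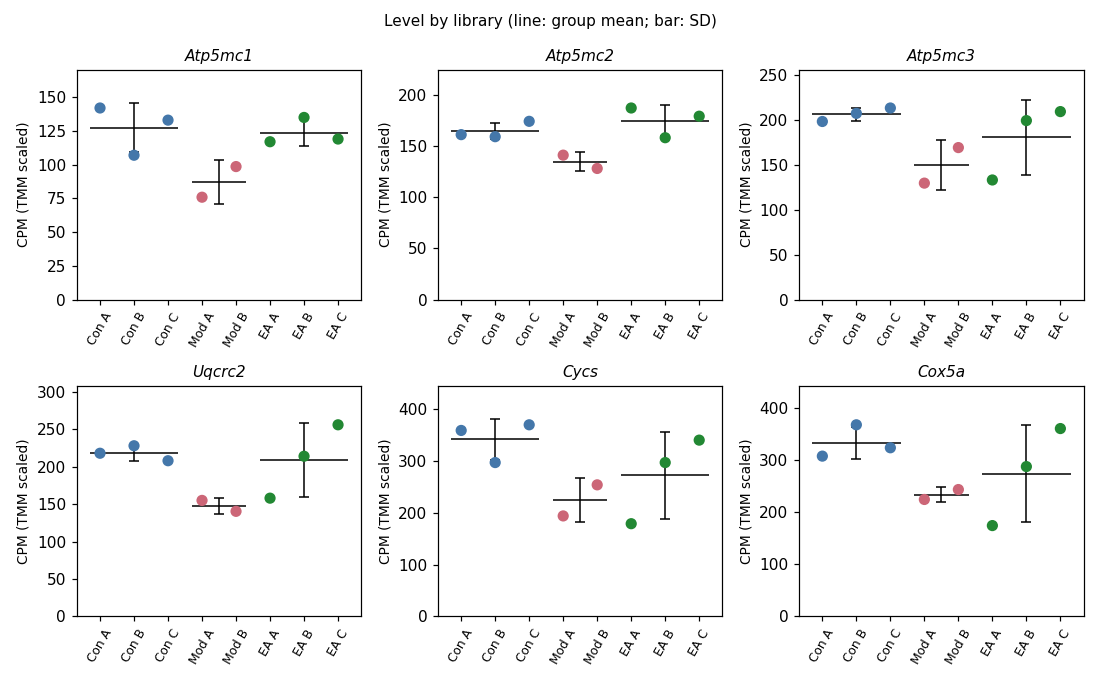
CPM (y axis, from 0) of 6 genes in each sample (x axis; Con, control; Mod, model; EA, electroacupuncture); horizontal lines are group means and bars are SD (n = 3, 2 and 3). The model samples sit below every control in each panel, and electroacupuncture A sits low for Uqcrc2, Cycs, Cox5a and Atp5mc3 but not for Atp5mc1 (117 CPM) or Atp5mc2 (187 CPM).

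Assembly factors of complex I, which build the enzyme without staying in it, had 4 of 8 genes lower in estimate and a median of -0.04. Ndufaf3 measured 65.1, 64.3 and 68.1 CPM in controls versus 52.8 and 54.6 CPM in the model. Ndufaf7, a methyltransferase, was above every control, at 23.7 and 28.5 CPM against 23.1, 21.3 and 23.5 CPM, and so was Ndufaf8, at 38.4 and 41.8 CPM against 31.6, 35.7 and 34.2 CPM. Their edgeR adjusted p were 0.525, 0.55 and 0.599.

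The second comparison set electroacupuncture against the model. The 91 genes did not shift together: 49 were lower and 42 higher in estimate with electroacupuncture, with a median log2 fold change of -0.02 against 0.03 over all genes. Of all genes, 46.6% were lower. None passed (edgeR, smallest adjusted p = 0.303), nor did any of all genes tested (0%). At an unadjusted p under 0.05 there were 5 members (5.49%, against 13.5% of all genes), 4 higher (6.3% of all genes) and 1 lower (7.18%). The count was 1 without control C, 2 without control A, control B or electroacupuncture B, 8 without electroacupuncture A or C and 0 with the 2 groups fitted alone. Again, the share of all genes was not counted in these fits. Every electroacupuncture sample lay above both model samples for 6 members (6.59%, against 12.9%) and below both for 5 (5.49%, against 11.7%). The medians by complex were -0.04, 0.13, 0.09, -0.03 and 0.02 for complexes I to V. The model samples are also those of the first comparison, so the 2 sets of differences are not independent.

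**Figure D3:**
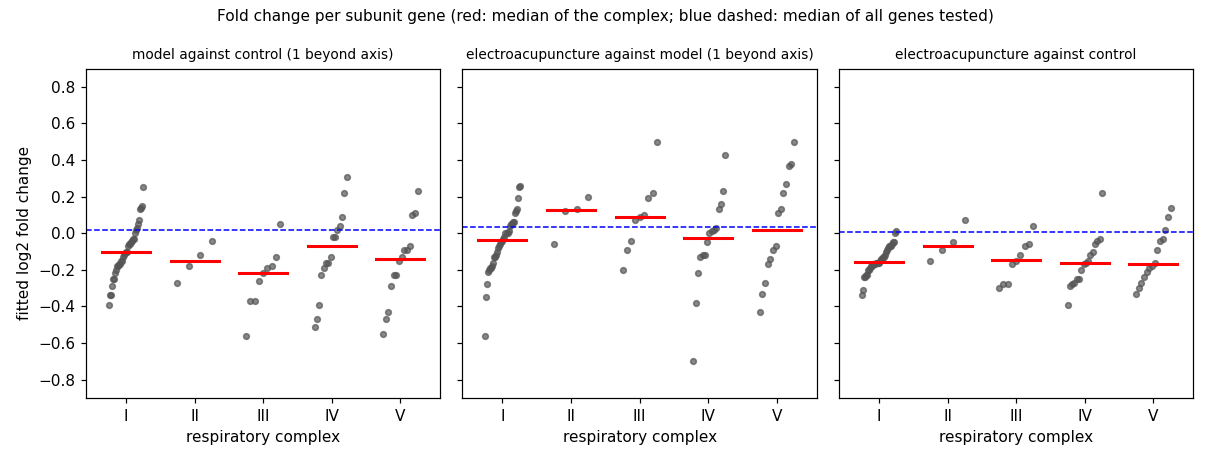
Fitted log2 fold change (y axis) of each subunit gene of complexes I to V (x axis) in the 3 comparisons; red bars are medians of the complex and dashed lines the median of all genes tested. Medians run from -0.22 to 0.13, and Cox6a2 of complex IV lies beyond the axis in 2 panels at 2.09 and -2.37.

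Of the 3 subunit c genes, 2 were among the members with the smallest p. Atp5mc1 measured 117, 135 and 119 CPM with electroacupuncture, and the model 75.9 and 98.6 CPM (log2 fold change 0.50, SE 0.19, edgeR adjusted p = 0.305), and Atp5mc2 187, 158 and 179 CPM against 141 and 128 CPM (0.38, SE 0.15, edgeR adjusted p = 0.32). Every treated sample was above both model samples for these 2 genes. Atp5mc3, at 133, 199 and 209 CPM against 129.5 and 169 CPM, overlapped (0.27, SE 0.23, edgeR adjusted p = 0.682). Atp5f1a, the alpha subunit of the F1 head, named after its values were seen, measured 281, 281 and 253 CPM against 193 and 227 CPM (0.37, SE 0.16, edgeR adjusted p = 0.368).

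Uqcrc2 measured 158, 214 and 256 CPM with electroacupuncture against 155 and 140.4 CPM (log2 fold change 0.50, SE 0.22, edgeR adjusted p = 0.369). Electroacupuncture A was close to the model samples and electroacupuncture C above every control. Uqcrc1 measured 118, 133 and 137 CPM against 94.4 and 128 CPM and overlapped. Sdha measured 140.5, 139 and 159 CPM against 125 and 130.2 CPM, and Sdhc 136, 134 and 146 CPM against 126 and 127 CPM, both without overlap (edgeR adjusted p = 0.6 and 0.732). Sdhb at 131, 142 and 160.4 CPM and Sdhd at 91.5, 95.8 and 111 CPM overlapped the model.

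On the lower side, Cox7a2l2 measured 20.5, 24.1 and 46.6 CPM with electroacupuncture against 49.7 and 48.9 CPM without it (log2 fold change -0.70, SE 0.38, edgeR adjusted p = 0.49). Its controls measured 26.4, 48.4 and 44.8 CPM and spanned nearly the same range. Its level was not stable within a summed pair: the columns behind model B gave 20.1 and 76 CPM on their own totals, where those of Cox7a2 gave 227 and 170. With only the first column of each pair, the log2 fold change was -0.05 here, and -0.25 rather than 0.31 in model against control. All 11 deposited values of Cox7a2l2 were fractional. Cox7a2l, a supercomplex assembly factor, measured 188, 236 and 273 CPM against 236 and 238 CPM. Ndufaf8 measured 34.3, 22.7 and 32.9 CPM against 38.4 and 41.8 CPM (-0.42, SE 0.20, edgeR adjusted p = 0.41), without overlap. Cox6c, at 277, 284 and 375 CPM against 364 and 445 CPM, overlapped, as did Ndufb7 at 76.9, 88.8 and 123 CPM and Ndufc1 at 58.2, 99.5 and 127 CPM. Ndufaf1, an assembly chaperone, measured 11.8, 12.9 and 10.9 CPM, below both model values of 13.1 and 13.6 CPM, while its controls spanned 9.89 to 15.3 CPM.

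The treated samples differed in the level of these genes. Over all genes, electroacupuncture B and C were closer to each other (7.63 to 7.73 times the sampling variance) than either was to A (24.59 to 26.51 times). Electroacupuncture C was closer still to every control (3.64 to 6.14 times). Electroacupuncture B was closer still to controls A and C (4.35 to 5.27 times) but not to control B (8.66 to 9.1 times). The median log2 difference from the control mean over the 91 genes was -0.35 in electroacupuncture A, -0.16 in B and 0.07 in C. Electroacupuncture A was the lowest of all 8 samples for 55 of the 91 genes. Among genes averaging 50 CPM or more, it was lowest for 51 of 77 members (66.2%), against 38.9% of all 4491. The 15 pyruvate dehydrogenase and citric acid cycle genes, which feed the chain with NADH and succinate, had a median of -0.43 in that library, 0.05 in B and 0.10 in C. Cycs measured 179 CPM in electroacupuncture A against 297 and 340.3 CPM in B and C, and Cox5a 174 CPM against 287 and 359.8 CPM. Ndufa4 measured 307, 369 and 519 CPM, Ndufb11 97.8, 121 and 149 CPM, Ndufb6 72.9, 85.8 and 103 CPM, Uqcr10 48.1, 59 and 69.2 CPM, and Ndufaf3 43, 52.2 and 68 CPM, each lowest in A and highest in C. Complex V was uneven in A, as log2 differences from the control mean: Atp5mc2 and Atp5f1a lay at 0.19, Atp5mc1 at -0.11 and Atp5mc3 at -0.64. The 6 subunits outside the ring and the F1 head had a median of -0.57.

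Electroacupuncture A is also the sample with the lowest neuronal markers (-1.22) and the highest striatal (5.25) and microglial ones (median 2.19 of 7 genes, against -0.16 to 1.39 elsewhere). The 77 cytosolic ribosomal protein genes, another set of abundant housekeeping transcripts, had a median of 0.20 there, within the range elsewhere of -0.21 to 0.34. The median of the 91 genes against model was 0.09 without electroacupuncture A and -0.13 without electroacupuncture C, and 0.04 without model B.

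Electroacupuncture against control compares treated rats with the unoperated or sham level. Here 82 of 91 genes were lower in estimate, against 49.2% of all genes. Their median was -0.16 against 0.005 over all genes, and no estimate but 1 reached 0.5 in size. None passed (edgeR, smallest adjusted p = 0.843; 0% of all genes were called), and none had an unadjusted p under 0.05, against 3.66% of all genes (2.71% higher and 0.956% lower). Without electroacupuncture C, 15 members had an unadjusted p under 0.05, and the share of all genes in that fit was not counted. Every treated sample was below every control for 4 members (4.4%, against 4.88% of all genes) and above for 1 (1.1%, against 5.98%). The medians of complexes I to V were -0.16, -0.07, -0.15, -0.16 and -0.17. The median over the 91 genes was -0.05 without electroacupuncture A and -0.24 without electroacupuncture C. With library totals, 65 of 91 were lower, against 37.7% of all genes, and the median was -0.07, while that of all genes was 0.09. The gap between members and all genes was -0.17 on that scale and -0.16 with TMM.

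Several subunits exist as isoforms made in different tissues. The deposited counts carry no transcript length, so isoforms are compared between samples and not with each other. Cox6a2, the isoform of heart and skeletal muscle that is also known from parvalbumin interneurons, stood out in 1 sample. It had 114 reads in model B (6.24 CPM) but 13 in model A (0.697 CPM), 9, 5 and 11 in the controls (0.825, 0.568 and 1.01 CPM) and 6, 25 and 3 in the electroacupuncture samples (0.521, 1.06 and 0.316 CPM). The 2 columns summed into model B gave 5.9 and 6.57 CPM on their own totals. The fitted log2 fold change of 2.09 in model against control (SE 0.88, edgeR adjusted p = 0.352) turned to -0.21 without model B, and the -2.37 of electroacupuncture against model shrank to -0.07. Parvalbumin (Pvalb) measured 183 CPM in model B, 37.2 CPM in model A and 9.89 CPM in electroacupuncture A, and the other 5 ranged from 104 to 152 CPM. The 5 listed parvalbumin interneuron genes, Pvalb included, had a median log2 difference of 0.66 in model B, against -0.17 to 0.22 in controls. In model B 1 of the 5 lay below the control mean, Nefh, at 90.2 CPM against 145, 134 and 117 CPM in controls. Syt2 measured 2.13 CPM in model B but 3.3 CPM in electroacupuncture A. Of 5 muscle genes in model B, Acta1 measured 30.5 CPM, the highest of the 8 samples (15.4 to 28.8 CPM elsewhere), Myh7 9.74, Myh6 7.23, Ckm 0.274 and Myl2 0 CPM. The neocortical list was also highest in model B. None of these was tested for its part in the Cox6a2 level.

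Ndufa4l2, a relative of Ndufa4 known to be induced by low oxygen and found in pericytes, measured 3.57, 5.23 and 5.04 CPM in controls. Its model values were 7.98 and 5.53 CPM, and its electroacupuncture values 12.3, 4.97 and 4.11 CPM. Both model samples were above every control (log2 fold change 0.55, SE 0.49, edgeR adjusted p = 0.639), and electroacupuncture A was highest. Cox4i2, the isoform also linked to low oxygen and to vessels, measured 2.2, 4.55 and 4.4 CPM, 4.23 and 4.43 CPM, and 6.51, 3.32 and 3.16 CPM in the same order. It too was highest in electroacupuncture A, where the median of 4 endothelial genes was 1.37, against -0.33 to 0.78 elsewhere. Cox7a1, a muscle isoform, measured 1.19 to 2.57 CPM over the 8 samples and Cox6b2, a testis isoform, 2.68 to 7.39 CPM, with overlapping groups in both.

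**Figure D4:**
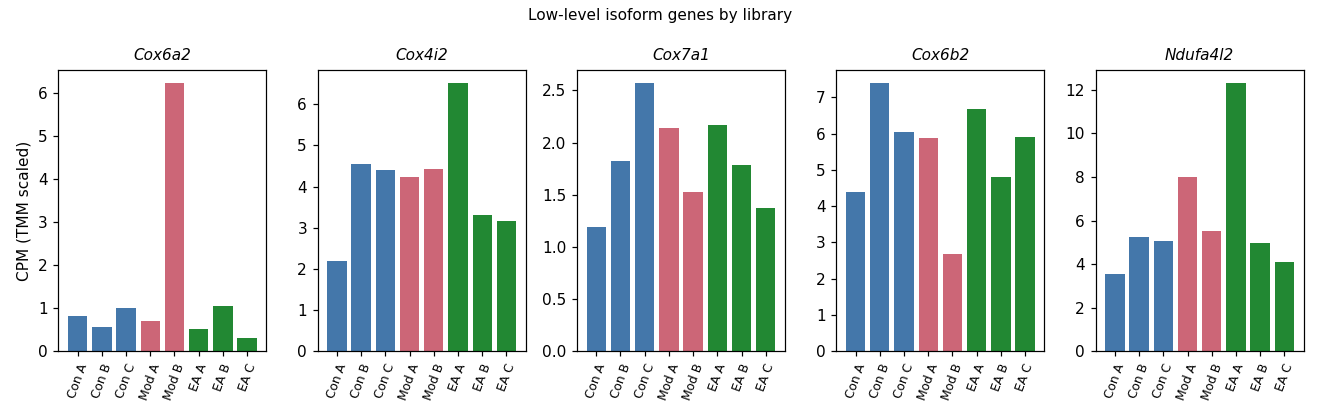
CPM (y axis, from 0, a separate scale in each panel) of 5 low-level isoform genes in each sample (x axis; Con, control; Mod, model; EA, electroacupuncture). Cox6a2 reaches 6.24 CPM in model B and at most 1.06 CPM elsewhere; Ndufa4l2 and Cox4i2 are highest in electroacupuncture A, at 12.3 and 6.51 CPM.

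Of the 91 genes, 77 averaged at least 50 CPM and 14 did not. The range over the 8 samples had a median of 0.6 on the log2 scale for those 77, against 0.755 for all 4491 genes at that level. Over the 8 samples, 50 of the 91 genes had a Pearson correlation above 0.7 with the median of the remaining complex I to V subunits (median r = 0.79), and 8 had a negative one. The points share library and scaling, and the same was not computed for other genes, so this is a description. The 8 were Ndufa4l2 (-0.75), Ndufaf1 (-0.46), Cox4i2 (-0.35), Cox7a1 (-0.27), Atp5f1a (-0.17), Ndufaf7 (-0.14), Atp5mc2 (-0.07) and Cox6b2 (-0.06). They include 3 low-level isoforms of complex IV, 2 assembly factors and 2 of the ATP synthase genes described above.

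Genes around the chain were examined as lists. In model against control, all 8 mitochondrial carriers and porins were lower in estimate (median -0.21; 5 with both model samples below every control, against 19.6% of all genes), as were 13 of 14 genes of mitochondrial import and structure (median -0.23; 10 below every control). Over all genes 48.5% were lower in estimate. None passed. Hspd1, the chaperonin of the matrix, measured 83.9 and 72.3 CPM in the model against 98.9, 114 and 102 CPM in controls (edgeR adjusted p = 0.25), and Phb2, a prohibitin, 53.3 and 57.7 CPM against 65, 73.8 and 68.2 CPM. Vdac2, a porin, measured 214 and 216 CPM against 243, 271 and 246 CPM, and Slc25a11, the oxoglutarate carrier, 21.8 and 35.4 CPM against 41.7, 33.4 and 42.1 CPM. The 5 carriers and porins below every control include Slc25a5, at 205 CPM in model A but 3.39 CPM in model B, against 288, 313 and 293 CPM. The cause of its near absence from model B was not tested.

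The 15 pyruvate dehydrogenase and citric acid cycle genes had a median of -0.09, with 11 lower in estimate. Suclg1, a subunit of succinyl-CoA ligase, measured 98.3 and 118 CPM against 153, 154 and 170.5 CPM (edgeR adjusted p = 0.361), and Cs, citrate synthase, 41.8 and 47.6 CPM against 56.5, 56.3 and 52.9 CPM (edgeR adjusted p = 0.368). The other assembly factors of the chain, 37 genes, were lower in estimate for 23, with a median of -0.06. Among them Tmem70, which assembles the subunit c ring, measured 31.5 and 31.8 CPM against 44.2, 47.9 and 41.9 CPM (log2 fold change -0.50, SE 0.19, edgeR adjusted p = 0.316), and Coa6, a copper chaperone of complex IV, 141 and 104 CPM against 73, 105 and 73.6 CPM. Like Slc25a5, the assembly factors Uqcc1 and Atpaf1 were nearly absent from model B, at 0.328 and 0.109 CPM, against 25.8 and 45.5 CPM in model A. The 15 regulators of mitochondrial gene expression had 8 lower and 7 higher. Tfam, which packages mitochondrial DNA, measured 23.3 and 17.5 CPM against 25.3, 25.8 and 27.4 CPM, and Tfb1m, an RNA methyltransferase, 36.3 and 20.5 CPM against 15.8, 22.4 and 14.7 CPM. The 4 genes of creatine kinase and adenylate transfer had a median of 0.05, with Ckmt1 at 176 CPM in model A but 317 CPM in model B against 293, 324 and 310.5 CPM.

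In electroacupuncture against model, none of these lists had a gene that passed. The medians were 0.12 for carriers and porins, 0.08 for import and structure, 0.14 for the citric acid cycle list, -0.04 for the other assembly factors and -0.03 for the regulators, against 0.03 for all genes. Cs measured 62.5, 68.6 and 59.1 CPM with electroacupuncture, above every model and control value. Hspd1 measured 102, 109.7 and 105 CPM, within the control range, and Tmem70 26.1, 37.9 and 38 CPM, overlapping the model.

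When all 11 columns entered as separate samples, 1 member passed in model against control (Uqcrc2, edgeR adjusted p = 0.0439; 7.37% of all genes were called) and 4 in electroacupuncture against model. These were Atp5f1a (edgeR adjusted p = 0.0359), Atp5mc1 (0.0359), Uqcrc2 (0.0366) and Atp5mc2 (0.0434), all higher with electroacupuncture, while 10.9% of all genes were called. That fit counts near-identical columns as independent. DESeq2 on the 8 samples called 0 members in any comparison, while it called 4.96% and 4.62% of all genes in the first and second and 0.0065% in electroacupuncture against control.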

How the data were processed

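Strand-marked paired-end libraries of poly(A)-selected RNA were sequenced, per the labels' protocols. What the authors deposited are expected counts, that is, unnormalized read estimates for each gene (70.8% to 72.3% of the values of a column are whole within 1e-09) for 18804 rows and 11 columns. In the submitters' processing notes DESeq2 1.16.1, featureCounts 1.5.0-p3, HISAT2 2.0.5 and StringTie 1.3.3b appear, with no roles; for the build, the sources used here name none. Reads shared between gene copies may have been split. Of the 91 genes, 22 had a fractional value (24.2%, against 39.3% of all genes tested). RefSeq names a pseudogene after 44 of the 91.

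Column names gave the group and no labelled sample. Columns headed sham were assigned to the controls, since both other groups are labelled with the occlusion. The 4 duplicated symbols were summed and values rounded to whole numbers. Near-identical columns (median squared difference under 2 times the sampling variance, over genes with at least 20 counts in the pair) were summed, which left 8 samples. edgeR 4.0.16 in R 4.3.3 fitted all 8 in 1 model (TMM, default filter by group, robust quasi-likelihood F test, two-sided, 5 residual degrees of freedom, Benjamini-Hochberg over 15487 genes, called under 0.05). Standard errors were derived from the F statistic. Intervals for counting error are not given, since the spread between samples enters every test. Alternatives were separate columns, 1 column of each pair, library totals, no filter, DESeq2 1.42.0, the 2 compared groups alone and leaving out each sample.

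The members, gene lists and naming rule were chosen with earlier results of these data known. Genes named are the 2 with the smallest p in each complex and in the assembly factors for each of the first 2 comparisons, all Sdh genes, Cycs, Cyc1, isoform families, the extremes of each comparison, and 2 per neighbouring list. Atp5f1a was named afterwards.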

Additional observations from a re-analysis of the deposited data

How the results depend on the processing

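Over 14 alternative settings, the counts of members called stayed at 0 except with each column as a separate library, where 1 member was called in model against control and 4 in electroacupuncture against model. Leaving out 1 sample left each of these counts at 0. With library totals, the complex II median was -0.04 in model against control and 0.01 in electroacupuncture against control. That scaling also turned the sign of complex I (0.01) and complex IV (0.04) in model against control and of complex V (-0.02) in electroacupuncture against model. Library totals were not alone in this. Complex IV also turned without model A (0.01), and that complex V median, 0.02 in the main fit, was not positive in 6 of the 14 settings. The ranges over leaving out 1 sample, for all members and complexes I to V, were -0.21 to -0.05, -0.18 to -0.03, -0.18 to -0.13, -0.48 to -0.11, -0.26 to 0.01 and -0.25 to -0.07 in model against control. They were -0.13 to 0.09, -0.18 to 0.07, 0.06 to 0.16, -0.08 to 0.32, -0.14 to 0.05 and -0.10 to 0.14 in electroacupuncture against model. In electroacupuncture against control they were -0.24 to -0.05, -0.27 to -0.05, -0.12 to -0.03, -0.22 to -0.06, -0.24 to -0.11 and -0.29 to -0.02. Of the subunit c genes, Atp5mc1 ran from -0.76 to -0.37, Atp5mc2 from -0.37 to -0.23 and Atp5mc3 from -0.68 to -0.29 in model against control, and Uqcrc2 from -0.64 to -0.50. The smallest adjusted p of any member over the alternatives was 0.0439, 0.0359 and 0.524 in the 3 comparisons. The cause of these shifts was not tested. No paired analysis was possible because the columns could not be tied to labelled samples and their replicate numbers.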
